A study of Mus musculus with 4 samples.

Results

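H3R26C was set against H3WT in cells that had both received 5-Azacitidine (5-Aza), with 1 single-cell RNA sequencing library for each genotype. The cells were C3H10T1/2, a mouse line of mesenchymal progenitor cells (MPC), which carried a lentiviral transgene for wild-type histone H3.1 or for H3.1 with arginine 26 replaced by cysteine, kept under puromycin beside the cells' own H3. Both libraries were treated with 3 µM 5-Aza for 24 h and collected on day 28. H3WT and H3R26C cells given the vehicle DMSO, also 1 library each, are used below only for values side by side, and their day of collection is not stated. Barcodes were kept with at least 5000 molecules (UMIs), at least 1500 genes and at most 20% mitochondrial UMIs. Those in which the sarcomeric genes Acta1, Actc1, Mylpf, Myl1, Tnnc2 and Tnnt3 together made 1% or more of the UMIs were left out, so the muscle fibre-like cells are not part of what follows and the level of those 6 genes is set by this choice. This left 5891 cells of H3WT and 7449 of H3R26C, in all 13340 of the 39891 deposited barcodes of the series.

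Arginine 26 of histone H3 is the neighbour of lysine 27, the residue that the Polycomb repressive complex PRC2 methylates to keep developmental genes silent. 5-Aza is built into DNA and traps DNA methyltransferases, so that methylation is lost as cells divide. In MPC it is used to set off differentiation towards muscle, fat and other mesenchymal lineages, and in many cell types it also turns on germline genes, endogenous retroviruses and interferon-stimulated genes.

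Each library was summed over its cells and expressed as UMIs per 1000000 UMIs of that library (CPM). Because there was 1 library on each side, no test between genotypes was possible, and the intervals given are exact 95% limits on counting error only. A sum over cells cannot tell more cells with a transcript from more transcript per cell, so the share of cells is added for the leading genes. Of the 9007 genes with at least 10 CPM in either library, 324 (3.6%) were at least 2-fold higher in H3R26C and 221 (2.45%) at least 2-fold lower, as log2 ratios with 1 CPM added to each value. The median log2 ratio over these genes was -0.03. Only 110 genes differed by 4-fold or more either way.

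The cells used had medians of 13137 UMIs for H3WT and 13057 for H3R26C and sums of 82642714 and 106935395 UMIs. The libraries differed otherwise: 8982 H3WT and 4462 H3R26C barcodes had under 5000 UMIs, the cells used were 39.3% and 61.5% of the barcodes, and 54 and 175 of them held 30000 UMIs or more. They shared 56 cell barcodes, or 0.95% of the smaller library. The leaving out of sarcomere-rich cells removed 102 H3WT and 170 H3R26C cells. No doublets were removed. The transgene and the cells' own H3 cannot be told apart in gene counts, so the genotype could not be checked. The mesenchymal markers were present in both libraries: Col1a1 was at 2742 and 3191 CPM in H3WT and H3R26C, the mesenchymal regulator Prrx1 at 638 and 546 and the growth factor receptor Pdgfra at 129 and 171. None of 10 endothelial markers reached 10 CPM, and their summed level was 13.3 and 17.5 CPM. Of 12 blood cell markers only Fcer1g and Cd68 did, and Ptprc, which defines leukocytes, was at 0.194 and 1.25 CPM. Of 10 neural and Schwann cell markers 3 reached 10 CPM and 1 of them was at least 2-fold higher, Stmn2, a neuronal microtubule regulator, at 0.823 and 23.3 CPM. Stmn2 had a UMI in 0.136% of H3WT and 6.23% of H3R26C cells after each cell was thinned to 5000 UMIs, while the Schwann cell factor Sox10 was at 0.0968 and 0.0374 CPM. The part of Stmn2-positive cells in the results was not tested.

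**Figure D1:**
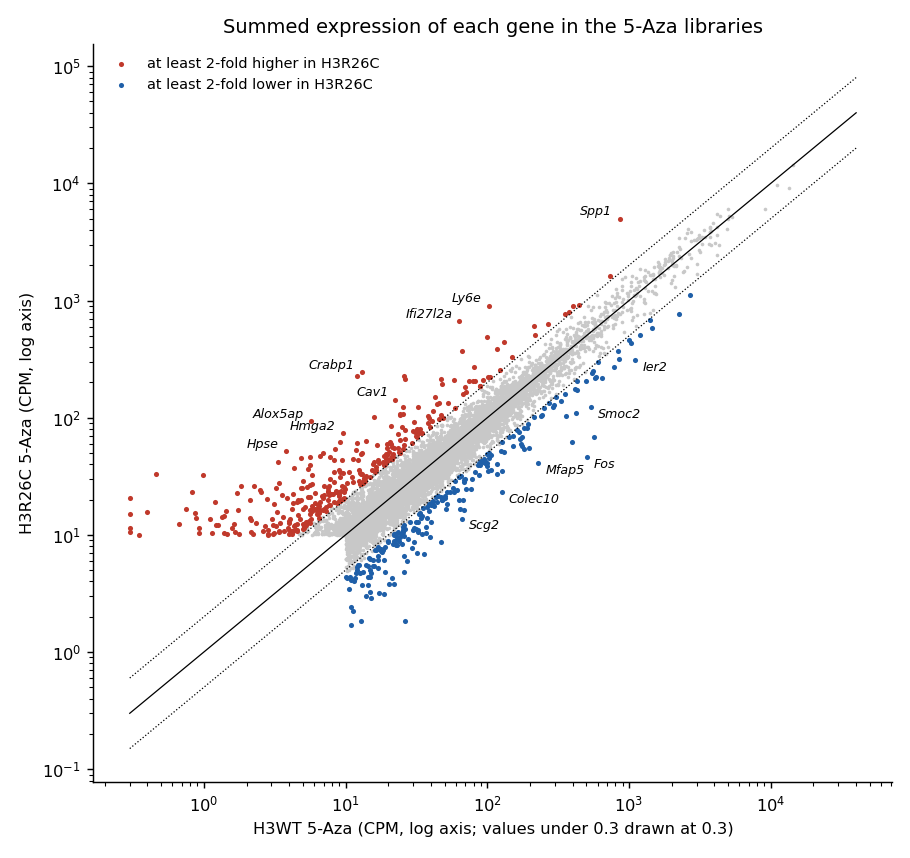
Each point is one of the 9007 genes, with its CPM in H3WT 5-Aza on the x axis and in H3R26C 5-Aza on the y axis, both log scales, and the dotted lines mark a 2-fold difference. The 324 red genes lie above the upper line and the 221 blue genes below the lower line, with Spp1 at 4998 CPM far above the others at its level and Fos at 45.9 CPM far below.

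Interferon-stimulated genes were the list with the most genes past 2-fold. They encode antiviral effectors, sensors and ubiquitin-like modifiers that cells switch on when interferon reaches its receptor. Of 50 listed genes, 39 reached 10 CPM, 23 of these were at least 2-fold higher in H3R26C and none was 2-fold lower. The median log2 ratio was 1.30 against -0.03 over all genes tested, and 38 of the 39 had a ratio above 0.

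Ifi27l2a, a small membrane protein of the interferon response, was at 63.5 CPM in H3WT and 664 in H3R26C, a ratio of 10.4 (interval 10.2 to 10.7). Isg15, the ubiquitin-like modifier, was at 66.2 and 372 CPM, 5.62-fold higher in H3R26C (5.46 to 5.78). Oasl2, which binds viral RNA, went from 5.65 CPM in H3WT to 39.5 in H3R26C. Among other members, named here after their values were seen, Ifit1 was at 24.1 and 107 CPM, Usp18, the enzyme that removes Isg15 from proteins, at 5.78 and 32.7, and the viral tether Bst2 at 214 and 609. Ifit3 was at 32.3 and 123 CPM, but it and its near-copy Ifit3b could share reads.

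The genes that carry the interferon signal differed less. Irf7, itself induced by interferon, was at 6.95 CPM in H3WT and 50.3 in H3R26C, a ratio of 7.25 (6.65 to 7.91), and Dhx58, a regulator of RNA sensing, at 7.09 and 25.9. These were the only 2 of 15 tested sensors and signalling genes past 2-fold, and the median of the 15 was 0.44. The lowest of the interferon-stimulated genes themselves, Samd9l, had a log2 ratio of -0.01.

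The difference was spread over the cells. After each cell had been thinned to 5000 UMIs, the interferon-stimulated genes together gave a median of 16 UMIs per cell in H3WT and 32 in H3R26C, and 83.3% of H3R26C cells lay above the H3WT median. The cells at the 10th and 90th percentiles held 9 and 27 UMIs in H3WT and 13 and 59 in H3R26C. Ifi27l2a had a UMI in 12.5% of thinned H3WT cells (exact binomial limits 11.7 to 13.4%) and 56.6% of H3R26C cells (55.5 to 57.7%), against 20.1% and 68.4% before thinning. Isg15 was found in 19.9% and 57.8% of thinned cells. Of the thinned sarcomere-rich cells, 4.90% in H3WT and 21.2% in H3R26C had a UMI of Ifi27l2a, and 5.88% and 24.1% one of Isg15. Those cells had medians of 15409 and 21904 UMIs before thinning. Expression in them and free RNA cannot be told apart here. The part of free RNA in the shares of the cells used was not tested.

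Promoter sequences of the interferon-stimulated genes are shown because many hold the letters GAAANNGAAA, the core of the interferon-stimulated response element. The windows, from RefSeq on GRCm38.p6, ran from 250 bases before to 50 bases after the annotated start, and both strands were searched. The motif was in 12 of the 18 interferon-stimulated genes that were at least 2-fold higher and had a window, or 66.7%, and in 4 of the 11 under 2-fold. It was in 3.75% of the 7200 tested genes with a window, and in 3.44% of all 32851 windows. The 150 bases before the start are printed 5′ to 3′ on the gene's strand for the genes with a motif in that stretch among those described, with motif matches on either strand in capitals, which run together where they overlap. The positions are chr4:156200819-156200968 on the minus strand for Isg15, chr19:34640739-34640888 plus for Ifit1, chr3:142559894-142560043 plus for Gbp3 (the first of its 2 windows), chr3:142530186-142530335 plus for Gbp7, chr8:71537473-71537622 minus for Bst2 and chr11:58199406-58199555 plus for Igtp.
Isg15: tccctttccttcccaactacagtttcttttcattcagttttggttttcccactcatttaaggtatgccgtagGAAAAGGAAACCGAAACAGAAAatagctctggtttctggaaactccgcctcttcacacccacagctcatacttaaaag
Ifit1: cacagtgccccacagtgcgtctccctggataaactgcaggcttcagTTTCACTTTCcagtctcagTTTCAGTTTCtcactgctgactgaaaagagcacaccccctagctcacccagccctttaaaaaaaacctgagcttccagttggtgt
Gbp3: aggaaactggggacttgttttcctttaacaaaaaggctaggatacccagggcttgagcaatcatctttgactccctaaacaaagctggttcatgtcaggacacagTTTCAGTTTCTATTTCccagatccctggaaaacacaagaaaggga
Gbp7: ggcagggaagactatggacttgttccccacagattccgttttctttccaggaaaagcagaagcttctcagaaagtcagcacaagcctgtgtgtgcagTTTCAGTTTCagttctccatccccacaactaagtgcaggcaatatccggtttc
Bst2: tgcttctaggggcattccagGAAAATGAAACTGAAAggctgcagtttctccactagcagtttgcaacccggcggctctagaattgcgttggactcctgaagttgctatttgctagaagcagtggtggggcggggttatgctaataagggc
Igtp: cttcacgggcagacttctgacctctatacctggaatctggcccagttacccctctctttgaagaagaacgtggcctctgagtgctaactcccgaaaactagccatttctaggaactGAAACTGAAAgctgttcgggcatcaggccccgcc
Isg15 had 3 overlapping matches, the first beginning 78 bases before the start, and Ifit1 had 2 separate ones, at 104 and 85 bases. The last 4 genes encode guanylate-binding and immunity-related GTPases and the viral tether: Gbp3 was at 3.07 CPM in H3WT and 10.2 in H3R26C, Gbp7 at 3.62 and 14.3, and Igtp at 6.09 and 18.6. A match describes these letters only and does not show binding.

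MHC class I genes, which interferons also induce and which present peptides to T cells, were higher in part. Of 17 tested, 7 were at least 2-fold higher, none lower, and the median was 0.94. H2-Q4 was at 132 CPM in H3WT and 442 in H3R26C, H2-T23 at 44.2 and 131, and the classical heavy chain H2-K1 at 215 and 512. The immunoproteasome subunit Psmb8 was at 33.3 and 80.8 CPM. B2m, the light chain that all class I molecules share, was not among them, at 778 and 716 CPM. H2-Q1, outside this list but among the 15 largest ratios, was at 8.4 and 54.0 CPM. The H2-Q and H2-T genes are near-copies of each other, so how reads were split among them is uncertain.

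**Figure D2:**
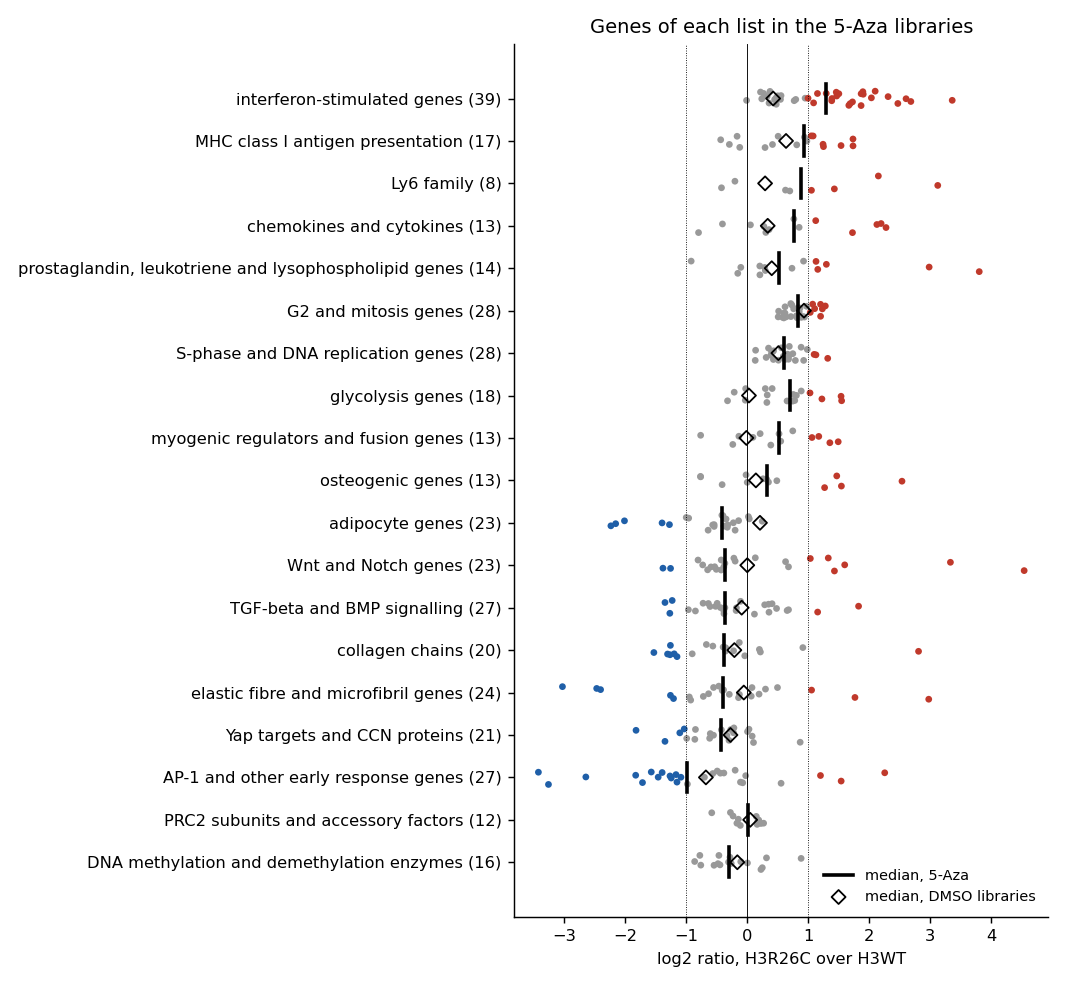
Each point is a tested gene of the list named at left (number tested in brackets), placed by its log2 ratio of H3R26C over H3WT in the 5-Aza libraries, with red and blue for genes past 2-fold. The black bar is the list's median, 1.30 for interferon-stimulated genes and -0.98 for early response genes, and the diamond the median of the same genes in the DMSO libraries, 0.43 and -0.67.

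Early response genes went the other way. Fos, Jun and Egr family factors and their feedback regulators are transcribed within minutes of growth factor, stretch or stress signals, and tissue dissociation is known to induce them too. Of 27 tested, 13 were at least 2-fold lower in H3R26C and 3 at least 2-fold higher, with a median log2 ratio of -0.98.

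Fos was at 501 CPM in H3WT and 45.9 in H3R26C, 10.9-fold lower (10.6 to 11.3). Fosb was at 26.2 and 1.84 CPM, and Zfp36, which speeds the decay of inflammatory mRNAs, at 397 and 62.6, 6.33-fold lower (6.17 to 6.50). Ier2 was at 1102 and 310.03 CPM. The other AP-1 subunits differed to different degrees, with Junb at 648 and 218 CPM, Jund at 1204 and 508, and Jun at 405 and 299, under 2-fold.

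The 3 that were higher were Fosl1, Dusp6 and Spry1. Fosl1, an AP-1 subunit, was at 12 CPM in H3WT and 61.3 in H3R26C. The ERK phosphatase Dusp6 was at 6.78 and 21.7, and the receptor signalling inhibitor Spry1 at 9 and 22.1. Their ratios were 5.10, 3.20 and 2.45. Within the AP-1 family, Fos and Fosl1 therefore lay at opposite ends, with log2 ratios of -3.42 and 2.26.

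Per cell the early response list gave medians of 25 UMIs in H3WT and 10 in H3R26C per 5000 UMIs, and 91.4% of H3R26C cells lay below the H3WT median. Fos had a UMI in 58.8% of thinned H3WT cells (57.5 to 60.1%) and 13.9% of H3R26C cells (13.1 to 14.7%), against 71.7% and 23.6% before thinning. The shares in sarcomere-rich cells were 22.5% and 6.47%. The exact cAMP response element TGACGTCA was in the promoter windows of 2 of the 10 lower early response genes that had one, and in 3.76% of all tested genes with a window. The part of handling at dissociation in this group was not tested.

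**Figure D3:**
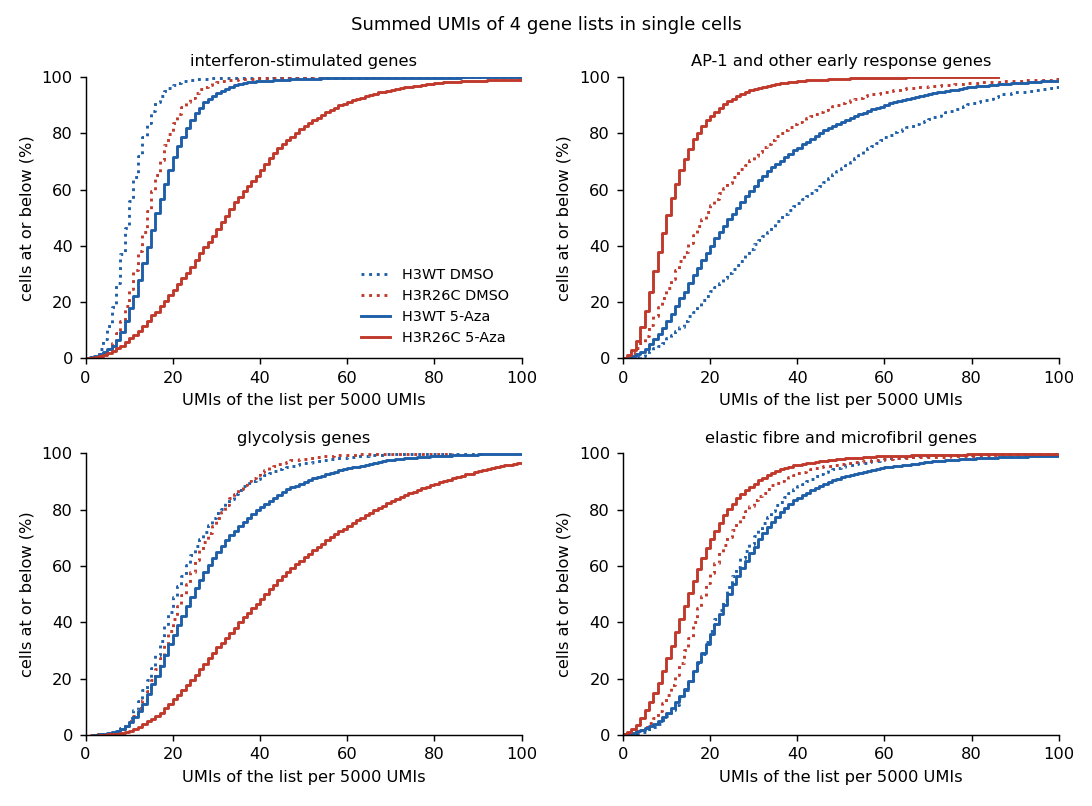
Each panel gives, for one gene list, the share of cells (y axis, %) with at most the number of UMIs on the x axis, after thinning each cell to 5000 UMIs, with solid lines for 5-Aza and dotted lines for DMSO and blue for H3WT and red for H3R26C. The H3R26C 5-Aza line lies to the right of the other 3 for interferon-stimulated genes (median 32) and glycolysis (median 41) and to the left of them for early response genes (median 10) and elastic fibre genes (median 15).

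Genes of the elastic fibre were lower as a group, with some fibulins on the opposite side. Elastic fibres are an elastin core on a scaffold of fibrillin microfibrils, assembled with the help of fibulins and crosslinked by lysyl oxidases. Of 24 tested genes 5 were at least 2-fold lower and 3 higher, with a median of -0.40. Eln, the elastin core itself, was at 563 CPM in H3WT and 68.2 in H3R26C, 8.26-fold lower (8.06 to 8.46). The microfibril protein Mfap5 was at 229 and 40.7 CPM. Fbln5, which brings elastin to the microfibrils, was at 1031 and 431, and Lox, which crosslinks them, at 683 and 441, under 2-fold, as was fibrillin Fbn1, at 344 and 263. Efemp1 and Fbln1, both fibulins, ran the other way: Efemp1 was at 26.1 and 212 CPM, 8.15-fold higher in H3R26C (7.80 to 8.52), and Fbln1 at 4.17 and 16.6. The third that was higher was the lysyl oxidase Loxl3, at 24 and 51. Eln had a UMI in 50.8% of thinned H3WT and 15% of H3R26C cells, and Efemp1 in 9.88% and 51.0%. In sarcomere-rich cells the shares were 12.7% and 2.94% for Eln and 0% and 10% for Efemp1.

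Other matrix genes were lower in subsets. Of 20 tested collagen chains 6 were at least 2-fold lower and 1 higher, with a median of -0.37. The 2 basement membrane chains Col4a1, at 429 CPM in H3WT and 173 in H3R26C, and Col4a2, at 237 and 103, and the basement membrane-associated Col15a1, at 493 and 206, were among the 6. The abundant fibrillar chains Col1a1, at 2742 and 3191, Col1a2, at 2153 and 1971, and Col3a1, at 3764 and 2951, were not. The lowest of the 6 was Col27a1, also a fibrillar chain, with a log2 ratio of -1.53. Col14a1, which coats collagen fibrils, was the one higher, at 1.43 and 16.1.

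Several of the genes with the smallest ratios encode secreted or matrix-associated proteins. Smoc2 was at 535 CPM in H3WT and 123 in H3R26C, and the collagen-processing enhancer Pcolce2 at 420.3 and 109. Abi3bp was at 358 and 102 CPM. The collectin Colec10, already counted in the elastic fibre list, was at 126 and 23. Dpt (dermatopontin), which interacts with decorin and collagen, was at 182 and 54.3 CPM. The gelatinase Mmp2 was at 1001 and 459 CPM and the aggrecanase Adamts5 at 331 and 139.8, while the protease inhibitor Timp1 was at 149 and 329, 2.20-fold higher (2.16 to 2.25). Of 16 metalloproteinases and inhibitors, 4 were at least 2-fold higher and 3 lower, with a median of -0.34. The other higher members were the procollagen peptidase Adamts2, at 30.01 and 76.9 CPM, the stromelysin Mmp3, at 7.74 and 18, and Adam8, at 2.83 and 10.2, and the third that was lower was Mmp11, at 93 and 42.1.

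Connective tissue growth factor genes and other targets of the mechanosensitive coactivator Yap were lower where they differed: 4 of 21 tested were at least 2-fold lower, none higher, and the median was -0.42. Ccn2 was at 126 CPM in H3WT and 35.1 in H3R26C, and Ccn1 at 489 and 246, just under the 2-fold limit. Tgfb2, a TGF-beta ligand in the same list, was at 100.01 and 38.7 CPM. Fstl1, a secreted modulator of TGF-beta and BMP signals and one of the most abundant transcripts of the list for that pathway, was at 2708 and 1125. Tgfbi, a matrix protein named for its induction by TGF-beta, was at 58.2 and 209, so the 27 tested TGF-beta and BMP genes held both directions, with 2 higher, 3 lower and a median of -0.36.

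Glycolysis genes were higher. Of 18 tested, 4 were at least 2-fold higher and none lower, with a median of 0.70. The glucose transporter Slc2a1 was at 19.7 CPM in H3WT and 59.6 in H3R26C, 3.03-fold higher (2.87 to 3.20), Gpi1 at 269 and 632, Pgk1 at 444 and 909, and the muscle-type enolase Eno3 at 26.3 and 78.4. Eno3 was found in 88.2% and 89.4% of thinned sarcomere-rich cells against 10% and 20.9% of the cells used, and its level in the latter is not read as expression. Ldha, at 942 and 1584 CPM, and Pkm, at 890 and 1532, stayed under 2-fold, and the hexokinase Hk2, at 11.4 and 8.90, was slightly lower. The list gave medians of 25 and 41 UMIs per thinned cell, and 78.9% of H3R26C cells lay above the H3WT median. In the sarcomere-rich cells that were left out the medians were 55 and 67 UMIs.

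Several targets of the hypoxia-inducible factors moved in the same direction, in a list put together after values had been seen. Of 25 tested, 10 were at least 2-fold higher and none lower, and the median was 0.75. Mgarp was at 9.20 and 62.6 CPM, Ndufa4l2, a mitochondrial protein induced in low oxygen, at 47.5 and 215, and Egln3, an oxygen-sensing prolyl hydroxylase, at 2.81 and 20.2. The glycolysis genes Pgk1 and Slc2a1 belong to both lists, and their promoter stretches are printed because each holds ACGTG, the core of the hypoxia response element, in capitals, which reads CACGT on the opposite strand. Slc2a1 lies at chr4:119108595-119108744 and Pgk1 at chrX:106186950-106187099, both windows on the plus strand.
Slc2a1: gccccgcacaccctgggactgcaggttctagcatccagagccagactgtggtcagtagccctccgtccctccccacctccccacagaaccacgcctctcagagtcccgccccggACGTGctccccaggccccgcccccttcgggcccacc
Pgk1: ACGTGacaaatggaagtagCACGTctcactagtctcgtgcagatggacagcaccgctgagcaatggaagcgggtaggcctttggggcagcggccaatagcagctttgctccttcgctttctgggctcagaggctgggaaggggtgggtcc
The 5 letters occurred in 7 of the 9 glycolysis and hypoxia genes that were at least 2-fold higher and had a window. They were in 31.0% of all tested genes with a window, so this short core is common. Among members of the lists under 2-fold, Gapdh, Ldha, Hk2 and Bnip3 held it and Tpi1 and Pfkl did not. The letters are therefore not particular to the higher members. In the sarcomere-rich H3R26C cells Egln3 was found in 17.6% of thinned cells against 7.75% of the cells used, and it is not read as expression by the latter.

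Proliferation genes were higher by modest amounts. All 28 tested G2 and mitosis genes had ratios above 0, from 0.51 to 1.28 on the log2 scale, and 7 passed 2-fold, with a median of 0.83. Top2a was at 89.6 CPM in H3WT and 177 in H3R26C, Birc5 at 67.9 and 158, and Mki67 at 51.7 and 85.8. The 28 S-phase genes had a median of 0.61, with 3 past 2-fold. Per cell, the 90th percentile of the G2 and mitosis list was 3 UMIs per thinned cell in H3WT and 22.2 in H3R26C, while the medians were 0 and 1. Leaving out cells in which this list or the histone genes made 0.5% or more of the UMIs kept 304 of the 324 higher and 200 of the 221 lower genes past 2-fold. Without those cells the G2 and mitosis median was 1.38, with 12 genes past 2-fold. The cells were left out partly by their share of this same list, so this median is not read as one of cells outside the cycle. In sarcomere-rich cells the list had means of 0.618 UMIs per thinned cell in H3WT and 1.08 in H3R26C. The part of free RNA was not tested.

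Markers of the mesenchymal lineages did not move as one. Among osteogenic genes 4 of 13 were at least 2-fold higher, led by Spp1 (osteopontin), a secreted phosphoprotein of bone and of many activated cells, at 858 CPM in H3WT and 4998 in H3R26C, a ratio of 5.83 (5.78 to 5.87). The pyrophosphate regulators Enpp1, at 20.6 and 62.0, and Ank, at 74.2 and 207, and the bone matrix protein Dmp1, at 9.21 and 23.6, were the other 3. The lineage factor Runx2 was at 32.4 and 32 CPM, with an interval of the ratio that includes equal levels. Sparc, an abundant bone and matrix protein, was at 4071 and 3066. Spp1 was found in 51.1% of thinned H3WT and 91.0% of H3R26C cells, but also in 26.5% and 85.9% of the sarcomere-rich cells. The part of free RNA in the share of Spp1 was not tested.

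Adipocyte genes were lower or level. Of 23 tested none was 2-fold higher, 5 were at least 2-fold lower and the median was -0.41. The lipid droplet protein Plin4 was at 68.3 CPM in H3WT and 16.2 in H3R26C, and Apoe at 581 and 221. Before thinning Plin4 had a UMI in 81.2% of H3WT and 61.6% of H3R26C DMSO cells, so it was widespread without 5-Aza. The fat cell genes Adipoq and Fabp4 had log2 ratios of -0.96 and -0.54, under 2-fold. The secreted products of fat cells Cfd (adipsin), at 35.9 and 6.85 CPM, and Retn (resistin), at 11 and 1.69, each came from under 1% of thinned cells in both libraries. Of 16 adipogenic regulators, 1 was at least 2-fold higher and 2 lower, with a median of -0.32 and 7 above 0. The master regulator Pparg was at 26.7 and 16.3, and Ppargc1a, a coactivator of mitochondrial genes, at 12.9 and 1.85. The higher one was the early adipogenic factor Klf5, at 5.75 and 27.1 CPM. Klf5 was found in 37.3% and 42.4% of thinned sarcomere-rich cells against 2.31% and 10.5% of the cells used. Its level in the latter is not read as expression. Without the cells that held a UMI of Enpp2, the gene for autotaxin, the adipocyte median moved to -0.10 and the log2 ratio of Adipoq to 0.02. All 22 tested genes of cholesterol and fatty acid synthesis had ratios below 0, with a median of -0.48 and 2 past 2-fold: Hmgcs1 was at 191 and 81.7 CPM and Mvd at 18.1 and 7.14.

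Cartilage genes gave a small list. Of 6 tested 2 were at least 2-fold lower, the matrilins Matn3, at 17.3 CPM in H3WT and 3.21 in H3R26C, and Matn4, at 12.1 and 5.00. The regulator Sox9 was at 316 and 193.

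For muscle, what is left after the sarcomere-rich cells were taken out bears on early steps only. Of 13 tested myogenic regulators and fusion genes 4 were at least 2-fold higher in H3R26C and the median was 0.53. The fusion peptide gene Mymx was at 5.76 and 16.3 CPM and the acetylcholine receptor subunit Chrna1 at 4.65 and 14.9. In the sarcomere-rich cells Mymx was found in 63.7% and 84.7% of thinned cells against 1.56% and 3.99% of the cells used, and Chrna1 in 46.1% and 80% against 2.09% and 4.81%. The integrin subunit Itga7, also past 2-fold, was found in 36.3% and 60% against 1.99% and 3.99%. The levels of these 3 of the 4 genes in the cells used are therefore not read as expression. The part of free RNA in them was not tested. The satellite cell factor Pax3, the fourth, was at 9.67 and 23.1 CPM, with 2.35% of sarcomere-rich and 10.5% of used H3R26C cells positive. Myod1 was at 10.9 and 19 and Myog at 30.6 and 45.4, under 2-fold.

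Progenitor and surface markers were mixed. Of 23 tested, 8 were at least 2-fold higher and 2 lower. Hopx, a homeodomain-only cofactor of stem and progenitor cells, was at 25.7 CPM in H3WT and 228 in H3R26C, 8.85-fold higher (8.47 to 9.26), and the quiescence-associated Plac8 at 118 and 385. Thy1, at 125 and 51.9, and Pi16, a marker of fibroblast progenitors, at 107 and 35.9, were lower. In the Ly6 family of small glycosylphosphatidylinositol-anchored proteins 4 of 8 were at least 2-fold higher. Ly6e, which restricts virus entry and is itself interferon-induced, was at 103 and 906 CPM, a ratio of 8.81 (8.62 to 9.01). It was found in 25.8% and 77.4% of thinned cells, and in 8.82% and 39.4% of sarcomere-rich cells. The part of free RNA in the share of Ly6e was not tested. Ly6a (Sca-1), the family's progenitor marker, was at 1052 and 1629, under 2-fold.

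Crabp1, which carries retinoic acid in the cell (chr9:54764748-54773110, plus strand, GRCm38), was at 13 CPM in H3WT and 243 in H3R26C, a ratio of 18.7 (17.6 to 19.9). It came from a minority of cells. Crabp1 had a UMI in 13.4% of thinned H3R26C cells (12.6 to 14.2%) and 1.85% of H3WT cells (1.52 to 2.23%), and 97.1% of its UMIs in H3R26C lay in the 10% of cells that held most. Before thinning the shares were 18.1% and 2.61%. In sarcomere-rich H3R26C cells the thinned share was 6.47%.

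Others among the 15 largest ratios shared no single role. Alox5ap, which presents arachidonic acid to 5-lipoxygenase for leukotriene synthesis, was at 5.74 CPM in H3WT and 93.3 in H3R26C, and Hpse, the heparan sulfate-cleaving heparanase, at 3.80 and 51.5. Hmga2, a chromatin protein of embryonic and tumour cells, was at 9.54 and 73.8, with its relative Hmga1 at 25.4 and 123. Cav1, the scaffold of caveolae, was at 22.5 and 142 CPM and the focal adhesion protein Tes at 15.8 and 100.5. Among the 15 smallest ratios, the imprinted Notch-like ligand Dlk1, an inhibitor of adipogenesis, was at 118 and 32.9, the granin Scg2 at 66.3 and 13.8, Angptl1 at 64.3 and 16.6 and the histone gene Hist1h4i at 197 and 54.8. Histone genes are near-copies, and most of their mRNA lacks the poly(A) tail that this assay captures.

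**Figure D4:**
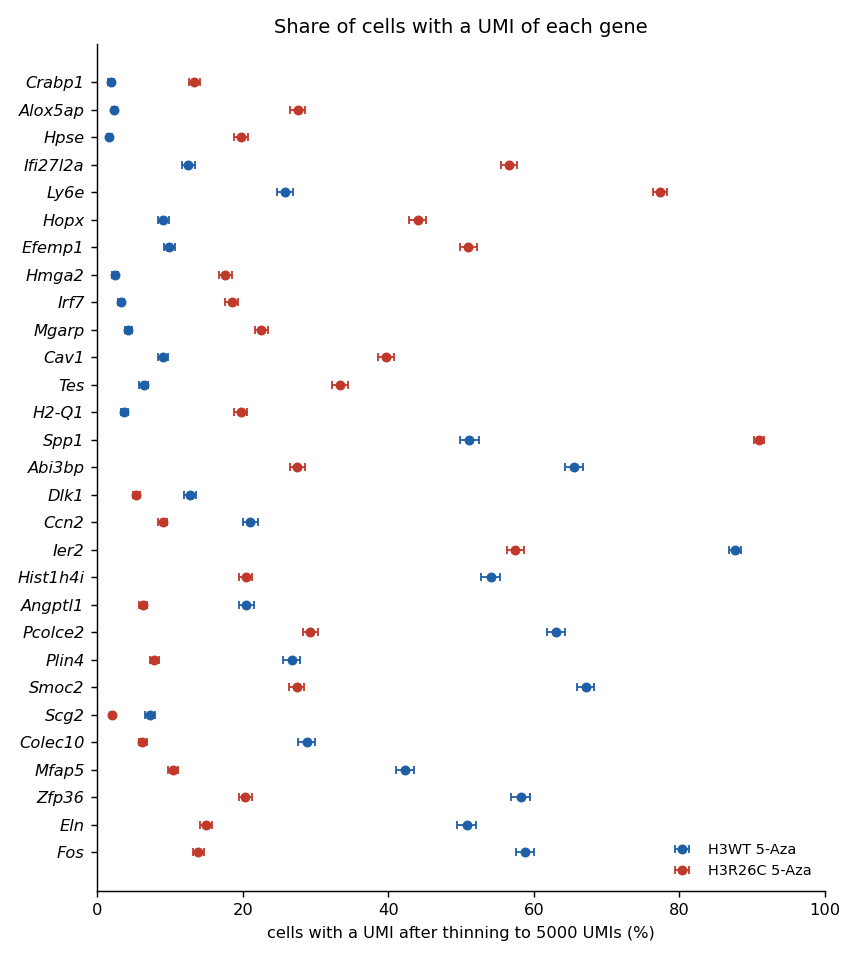
For 29 of the genes with the largest and smallest ratios (14 higher, 15 lower), the points give the share of cells with a UMI (x axis, %) after thinning each cell to 5000 UMIs, blue for H3WT 5-Aza and red for H3R26C 5-Aza, with exact 95% binomial limits. The limits of the libraries do not overlap for any of the 29 genes, from Ly6e at 25.8% and 77.4% to Fos at 58.8% and 13.9%. The genes were chosen by their ratio in these same cells, so this separation follows in part from the choice. The share of all tested genes whose limits do not overlap was not computed. The limits cover counting error only, and cells of a library are not replicates. The separation is therefore not read as a test between genotypes.

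Secreted signals were higher in several families. Of 14 tested genes of prostaglandin, leukotriene and lysophospholipid metabolism, 5 were at least 2-fold higher and none lower. They included, besides Alox5ap, the platelet-activating factor hydrolase Pla2g7, at 4.83 CPM in H3WT and 45.2 in H3R26C, the prostaglandin F receptor Ptgfr, Enpp2 (autotaxin), at 93.4 and 209.9, and the cyclooxygenase Ptgs1, at 47.5 and 105. Of 13 chemokines and cytokines 5 were at least 2-fold higher, among them the alarmin Il33, at 80.4 and 269. Ccl8, at 2.15 and 13.5, and Ccl5, at 1.67 and 10.7, were near the 10 CPM limit. Both reached it only in H3R26C, so their direction follows in part from that limit. Cxcl13 was found in 69.4% of thinned sarcomere-rich H3R26C cells against 3.32% of the cells used and is not read as expression by the latter.

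Wnt genes held both directions, with the very large ratios only among the higher ones. Wnt10a, a ligand of the canonical pathway (chr1:74791516-74804179, plus strand, GRCm38), was at 0.460 CPM in H3WT and 33.1 in H3R26C, a ratio of 71.9 (52.3 to 102), with a UMI in 0.204% and 12% of thinned cells and in 0% and 4.12% of sarcomere-rich cells. The Wnt-inactivating enzyme Notum was at 0.750 and 16.7 CPM. Wnt10a and Notum reached 10 CPM only in H3R26C, so their direction follows in part from that limit. The antagonist Dkk2 was at 41.5 and 114. The pathway agonist Rspo2, at 573 and 219.7, and the antagonist Sfrp2, at 417 and 174, were lower. In all 6 of 23 Wnt and Notch genes were at least 2-fold higher and 2 lower, with a median of -0.36. With no filter on low values the median of the list was -0.002. Of 24 angiogenic factors 6 were at least 2-fold higher and 1, Angptl1, lower, with a median of 0.22 and 11 below 0. The higher ones were led by Hgf, the ligand of Met, at 5.58 and 46.6 CPM, and the receptor Flt1, at 9.55 and 33.7. Hgf and Flt1 reached 10 CPM only in H3R26C, so their direction follows in part from that limit.

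Genes of PRC2 and of DNA methylation and demethylation stayed under 2-fold where tested. Over all genes tested 3.6% were at least 2-fold higher and 2.45% lower. A short list with none past 2-fold is near that share and is not read as particular to its genes. None of 12 tested PRC2 subunits and accessory factors passed 2-fold and their median was 0.02. The catalytic subunit Ezh2 was at 28.4 CPM in H3WT and 33.4 in H3R26C, Eed at 25.6 and 31.1, Suz12 at 42.6 and 48.8 and the accessory factor Jarid2 at 12.6 and 8.14. None of 16 DNA methylation and demethylation genes passed it either, with a median of -0.29. The maintenance methyltransferase Dnmt1 was at 39.6 and 47.3 CPM, its cofactor Uhrf1, which follows the cell cycle, at 13.9 and 26.6, and the de novo enzyme Dnmt3a at 36.1 and 19.5. Only 4 of 44 germline genes known to be silenced by DNA methylation reached 10 CPM. All 4 had ratios above 0, 2 were at least 2-fold higher in H3R26C and the median was 1.01. The 2 were Tex19.2, at 0.182 and 15 CPM, and its near-copy Tex19.1, at 4.99 and 11.3. Both reached 10 CPM only in H3R26C, so their direction follows in part from that limit. With no filter on low values the median of the list was 0.04. Summed over the list, levels were 64.6 CPM in H3WT and 130 in H3R26C, and 13.2 and 13.4 with DMSO. Of 22 imprinted genes 3 were at least 2-fold higher, Ndn, at 3.88 and 20.5, Mest and Sgce, and 2 lower, Rian, at 31.3 and 12.8, and Dlk1. Of 39 Hox genes only 4 were tested and none passed 2-fold.

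Control lists that reflect RNA quality and stress differed by less. None of 13 mitochondrially encoded, 5 nuclear-retained or 6 heat shock genes passed 2-fold, with medians of -0.12, -0.24 and -0.17. Malat1 was at 11000.3 CPM in H3WT and 9609 in H3R26C, and Hspa8 at 700.5 and 692. Of 18 smooth muscle and actin cytoskeleton genes none passed it, with a median of 0.04. These lists are short, and none past 2-fold is near the share over all genes tested, 3.6% higher and 2.45% lower. Of 12 epithelial and mesothelial markers only 2 reached 10 CPM and both were higher in H3R26C, Msln, at 0.992 and 32.6 CPM, and Krt8, at 0.871 and 15.2. Both reached 10 CPM only in H3R26C, so their direction follows in part from that limit. Msln was found in 15.9% of sarcomere-rich and 8.01% of used H3R26C cells after thinning, and its level in the latter is not read as expression. Epcam, which defines epithelia, was at 0.133 and 0.178 CPM. The part of these genes in the results above was not tested.

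The same genotype ratio was read in the DMSO libraries to see which of these differences were there without 5-Aza. There 104 of 8704 tested genes (1.19%) were at least 2-fold higher in H3R26C and 38 (0.437%) lower. Of the 324 genes higher after 5-Aza, 88, or 27.2%, were at least 2-fold higher with DMSO too, and 290 had the same sign, with a median of 0.67 against 1.44 after 5-Aza. Of the 221 lower genes 21, or 9.50%, were at least 2-fold lower with DMSO and 193 had the same sign, with medians of -0.38 and -1.24. No minimum level with DMSO was set for the 324 and 221 genes, so these counts are not subsets of the 104 and 38. Their shares therefore cannot be set against 1.19% and 0.437%. For all 9007 genes tested after 5-Aza, the share with the same sign was not computed. The 290 and 193 are therefore not read as particular to the called genes. None of the 4 libraries is shared between the comparisons. Each comparison rests on 1 library a side, and no test of the difference between them was possible.

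Among the groups, the early response list had a DMSO median of -0.67, with 4 genes at least 2-fold lower and 2 higher, against -0.98, 13 and 3 after 5-Aza. The mitosis list had a DMSO median of 0.93, with 5 genes past 2-fold against 7. Interferon-stimulated genes had a DMSO median of 0.43 and 4 genes past 2-fold, with Isg15 at 13 CPM in H3WT and 23 in H3R26C. The glycolysis, myogenic and adipocyte lists had DMSO medians of 0.03, -0.01 and 0.21, so their direction after 5-Aza was not seen with DMSO.

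Single genes showed both kinds. Efemp1 was at 8.36 CPM in H3WT and 87.9 in H3R26C with DMSO, a log2 ratio of 3.25 beside 2.98 after 5-Aza. Eln was at 441 and 126 with DMSO. Smoc2, by contrast, was at 598 and 549.6 CPM with DMSO. Wnt10a was at 0 in both DMSO libraries, which were deeper per cell, with medians of 22420 and 16598 UMIs. Their sums were 86871326 UMIs for H3WT and 84060490 for H3R26C, the latter below the 106935395 of H3R26C 5-Aza. Crabp1 was nearly silent with DMSO, at 0.0576 and 1.49 CPM, below the 10 CPM limit in each library.

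**Figure D5:**
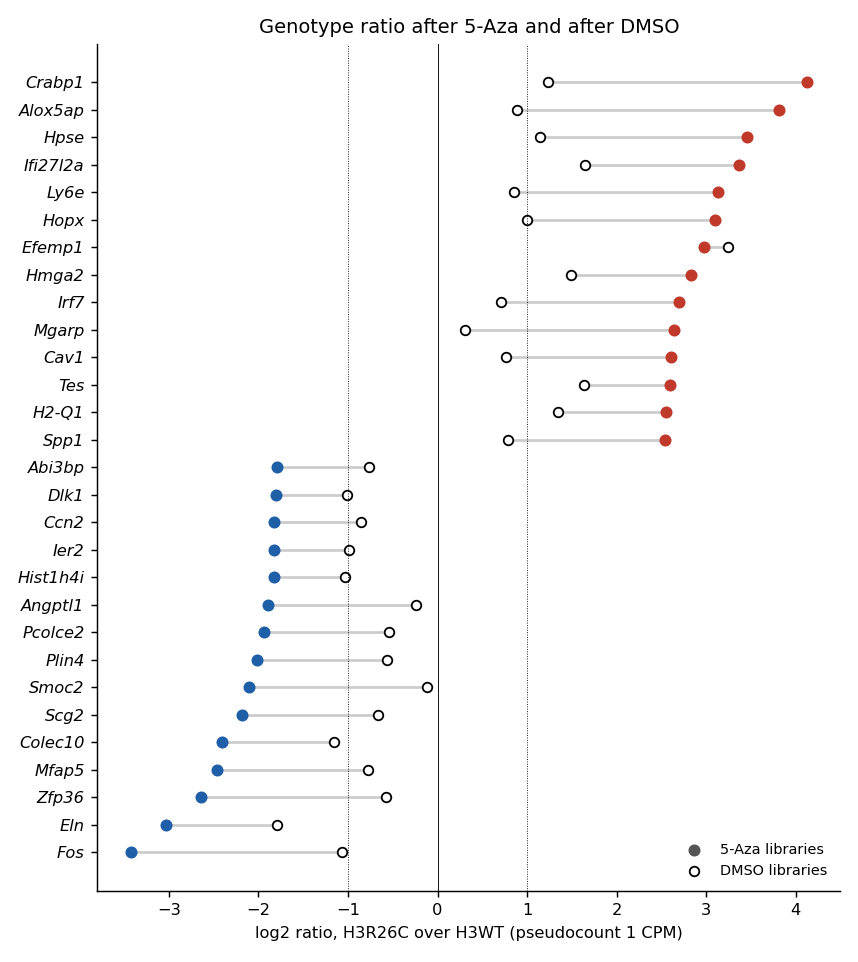
Filled points give the log2 ratio of H3R26C over H3WT after 5-Aza (red above 0, blue below) and open points the same ratio in the DMSO libraries, for 29 of the genes with the largest and smallest ratios. All 29 genes have the same sign in both, and only Efemp1 has the larger ratio with DMSO, at 3.25 against 2.98. The genes were chosen by their ratio after 5-Aza, and the share of all tested genes with the same sign was not computed.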

How the data were processed

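Single-cell RNA sequencing of 4 libraries on the 10X Genomics platform was analysed. The authors counted UMIs with Cell Ranger (6.1.0 in the file headers) on mm10 and deposited whole-number counts of 32285 genes per barcode, without normalization. Genes were placed with GENCODE M21 (GRCm38) by gene identifier, which matched 99.8% of them. Counts were summed per library over the cells kept and scaled to CPM. Genes with at least 10 CPM in either library were compared as log2 ratios with 1 CPM added, and a gene was called at a 2-fold difference. A gene under 10 CPM in one library was tested only through the other, so its direction follows in part from that limit. Intervals of levels are exact Poisson limits, of ratios exact conditional binomial limits and of shares of cells Clopper-Pearson limits, each at 95%, and cover counting error only. With 1 library per condition no p-value or standard error was computed. Cells of a library are not replicates. A count of 0 UMIs allows a share of up to 0.0509% of H3WT and 0.0403% of H3R26C cells with a UMI, which is no limit on cells that express a gene.

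Named genes are the 15 largest and 15 smallest ratios among genes of at least 50 CPM in either library and, for each list, up to 4 members past 2-fold in each direction, or the 2 highest in CPM where none was past it. Other genes were named after their values were seen. Genes whose level is not read as expression stay in the counts and medians of their lists. A few results are not reported here. The comparison, its cells and the 45 gene lists were chosen with earlier results of these data known, and 4 more lists after the values of this comparison were seen. Alternatives changed the pseudocount, scaling, expression minimum and cell filters. Fold recovery was tested on simulated data. Python 3.11.15, numpy 2.4.6, scipy 1.17.1, pandas 2.3.3, matplotlib 3.10.9 and edgeR 4.0.16 in R 4.3.3, for TMM factors, were used.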

Additional observations from a re-analysis of the deposited data

Results flagged for a closer look

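Of the genes past 2-fold after 5-Aza, 4 differed by 2-fold or more in the opposite direction with DMSO. Each value rests on 1 library a side, and the difference between the treatments was not tested. Car9, a carbonic anhydrase induced in low oxygen, had a log2 ratio of H3R26C over H3WT of 1.53 with 5-Aza (45.3 and 132 CPM in H3WT and H3R26C) and of -3.14 with DMSO (30.4 and 2.57 CPM). Cfd, adipsin, had -2.23 with 5-Aza and 2.28 with DMSO (5.99 and 32.9 CPM in H3WT and H3R26C). Cfd had a UMI in 0.458% and 0.508% of thinned DMSO cells, with limits that overlap (0.267 to 0.733% and 0.326 to 0.755%). Retn, resistin, had -2.15 with 5-Aza and 2.79 with DMSO (0.265 and 7.76 CPM). Both DMSO levels of Retn are below the 10 CPM limit, and it had a UMI in 0.0539% and 0.317% of thinned DMSO cells. Kctd12, an auxiliary subunit of GABA-B receptors, had -1.33 with 5-Aza (23.9 and 8.92 CPM) and 1.32 with DMSO (21.9 and 56.2 CPM).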

How the results depend on the processing

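No paired analysis was possible because H3WT and H3R26C were each read in 1 library per treatment. The count of genes at least 2-fold higher in H3R26C, 324, stayed between 315 and 385 under 13 of the 17 alternatives, and that of genes at least 2-fold lower, 221, between 206 and 247 under the same 13. The other 4 changed how many low genes could count. With a pseudocount of 10 CPM the counts were 152 higher and 101 lower, with a minimum of 50 CPM 97 and 98, and with a minimum of 1 CPM or with no filter 672 and 341. TMM scaling gave 331 and 214, and no scaling moved the median of all genes by over 0.1. Of 172 named genes past 2-fold, all but 1 kept their sign under every alternative, the exception being Enpp2, which is 0 by construction without the cells that held it, and 56 went under 2-fold under at least 1 alternative. Among the medians of gene lists of 0.3 or more in size, that of the chondrogenic genes reversed, to 0.065 with a minimum of 50 CPM, and those of the imprinted and Hox genes were 0 with no filter. The interferon-stimulated median ran from 0.83 to 1.37 and the early response median from -1.17 to -0.56. Depth limits little at these sums, and the missing replicates limit every value.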

Other observations

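A few transcripts were found almost only in the H3R26C 5-Aza library. Of the genes with at least 10 CPM in one library, 7 were at 0.5 CPM or less in the other, and all 7 were higher in H3R26C (chosen after values were seen). Nefl, the light neurofilament subunit, had 2209 UMIs in H3R26C and 0 in H3WT, at least 569-fold higher when the H3WT library is set at 3 UMIs. The 1% of cells with most of it held 51.5% of its UMIs. Cthrc1, a secreted matrix protein, had 1132 UMIs in H3R26C and 1 in H3WT. Areg, an EGF receptor ligand, was at 0.399 CPM in H3WT and 15.7 in H3R26C. It had a UMI in 4.27% of thinned H3R26C cells and 2.35% of sarcomere-rich ones, and before thinning in 8.98% and 8.82%, so before thinning the shares lay close together. The others were Wnt10a, Tex19.2, Spink2, a protease inhibitor, and Gm12415. For Wnt10a the top 1% of cells held 16.3% of its UMIs. It had a UMI in 22.2% of H3R26C cells before thinning, and in 10.6% of sarcomere-rich ones. With DMSO these 7 genes were at 0.214 CPM or less in either library.

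The caveolae and EGF family lists, put together after values were seen, each held some genes past 2-fold. Of 10 caveolae genes Cav1 and Cav2 (38.0 and 104 CPM) were at least 2-fold higher, none was lower and the median was 0.02. Of 8 EGF family genes the ligands Areg, Btc (2.34 and 12.5 CPM) and Hbegf (9.91 and 24.6 CPM) were at least 2-fold higher and none lower, with a median of 0.48. These 3 ligands reached 10 CPM only in H3R26C, so their direction follows in part from that limit.

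The AP-1 letters TGANTCA were in the promoter windows of 41 of the 238 genes at least 2-fold higher that had one, or 17.2%, against 5.82% of tested genes with a window and 6.45% of those at least 2-fold lower. No test was made of these shares.

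The ratios also differed by chromosome. The median log2 ratio over the 507 tested genes of chromosome 8 was -0.33, with 85.2% of them below 0, and that over the 384 genes of chromosome 15 was 0.16, with 31.8% below 0. In the DMSO libraries the same genes gave medians of -0.19 and 0.21. Chromosome 9 had -0.18 after 5-Aza and -0.03 with DMSO, and chromosome 5 had 0.12 in both.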
